A study of Mus musculus with 54 samples.

Results

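A total of 3451 autosomal regions, 2.02% of the 170884 autosomal regions in the deposited openness table, had open chromatin at days 2 and 4 of retinoic acid-driven differentiation and lower openness before and after. They were selected on the openness values themselves. Openness, with 0.1 added, had to be at least 2 times higher on the lower of days 2 and 4 than on the highest of days 0, 10 and 20. Openness also had to be 1 or more on both days, and the values of days 2 and 4 had to lie within 2-fold of each other. The openness levels below therefore describe the selected regions and test nothing.

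The cells were R1 mouse embryonic stem cells, an established line grown with LIF, the cytokine that holds such cells in the pluripotent state. They were left in hanging drops for 48 h to form embryoid bodies, which are cell aggregates, and the aggregates then received medium with retinoic acid, at 0.5 mM per the labels, for up to 20 days. All groups came from this 1 line, and they are days 0, 2, 4, 10 and 20, with 7, 6, 9, 4 and 6 ATAC-seq libraries and 7, 3, 3, 5 and 4 RNA-seq libraries. For openness the authors give a single pooled value for each region on each day, so it has no replicates and no test. Whether the RNA libraries of 1 day are separate cultures is not stated, so RNA p-values cover the spread among libraries only, and that spread may be technical. Whether day 0 was taken before or after aggregation is not stated either.

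ATAC-seq uses the Tn5 transposase, which inserts adapters where DNA is not covered by nucleosomes, so that promoters, enhancers and other bound sites give more fragments than closed DNA. During neural induction retinoic acid binds nuclear receptors of the RAR and RXR families, which sit on DNA and switch on genes such as the Hox genes and the enzymes that break retinoic acid down. Enhancers that serve a passing progenitor state are known to open and then close again as cells mature. In RNA, over 4 markers each, the summed level of pluripotency genes was 1539 to 1742 FPKM per library at day 0 and 8.21 to 8.46 at day 4. That of neural progenitor genes was 167 to 186 at day 2 and highest at day 4 (224 to 243). The genes in this sum did not all move alike between days 2 and 4. Pax6 had means of 111 and 52.3 FPKM, and Hes5 of 21.1 and 89.7. Neuron markers differed more between these 2 days, with sums of 14.9 to 15.2 at day 2 and 1085 to 1104 at day 4, their highest day. The sum of astrocyte genes was highest at day 20 (1588 to 1741). Endoderm markers summed to 21.9 to 65.5 FPKM at day 0, 126 to 137 at day 2 and 83.0 to 90.3 at day 4. Their sum was highest at day 20 (178 to 211), and that of epithelial markers was 3837 to 4602 at day 20. In bulk samples more cells of a type and more signal per cell cannot be told apart. The part that the mixture of cells plays in the openness of the regions was not tested.

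The regions open at days 2 and 4 were among the less open regions on the other days and near the top on these 2. Their median openness at days 0, 2, 4, 10 and 20 was 0.689, 2.99, 2.64, 0.792 and 0.888, whereas the median of all autosomal regions lay between 1.21 and 1.24 on every day. In rank among all autosomal regions, the median percentile of the selected regions was 16.1, 91.1, 87.9, 23.1 and 29.7 on the same days. On all 3 other days 2525 of the 3451 regions (73.2%) lay below that day's median, against 14.5% of all autosomal regions. Openness was under 1 on all 3 days in 1848 (53.5%), and the remaining 1603 kept a value of 1 or more on at least 1 of them. The rule itself holds these 3 days low, and values under 1 were not counted over all autosomal regions. The range was wide: day 2 openness ran from 1.04 to 14.2 and day 4 openness from 1.01 to 11.6.

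**Figure D1:**
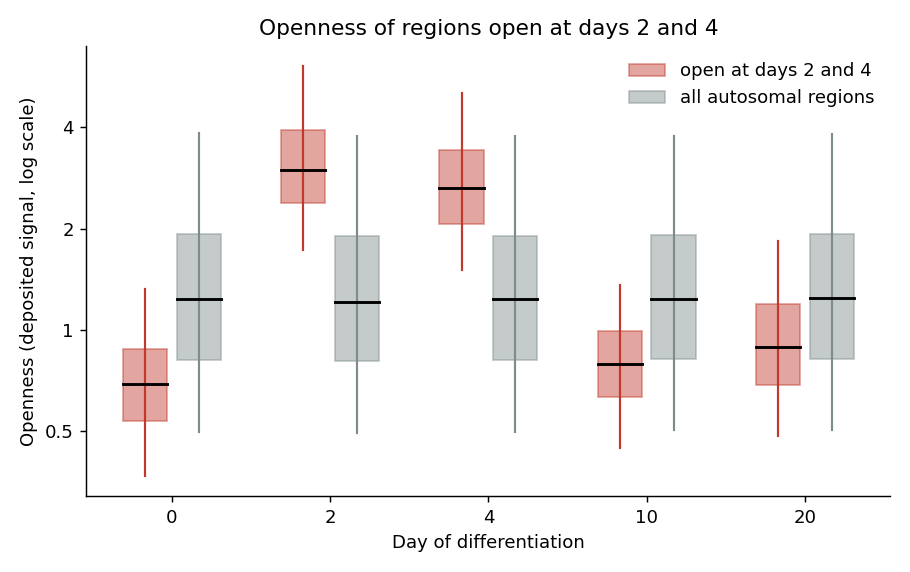
Openness on a log scale by day for the 3451 regions open at days 2 and 4 (red) and all 170884 autosomal regions (grey); boxes span the 25th to the 75th percentile, black lines are medians and whiskers reach the 5th and 95th percentiles. The selected regions had medians of 2.99 and 2.64 at days 2 and 4 and of 0.689 to 0.888 on the other days.

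The difference from the highest of the 3 other days was moderate for most regions. Against the neighbouring days, the median log2 difference (0.1 added) was 1.97 for day 2 over day 0 and 1.60 for day 4 over day 10. Over all autosomal regions these medians were -0.01 and -0.03. The ratio of the lower of days 2 and 4 to the highest other day had a median of 2.36 and a 75th percentile of 2.70. It reached 3 in 493 regions (14.3%), 4 in 66 (1.91%) and 5 in 8. Many regions lay near the threshold, with 626 less than 0.1 above it and 705 others less than 0.1 below it that met the rest of the rule. Just inside it, chr3:82842843-82844120 stood at 0.461, 1.63, 1.36, 0.532 and 0.631 at days 0, 2, 4, 10 and 20. Just outside it, chr19:34148534-34149289 stood at 0.416, 3.25, 2.94, 0.527 and 1.42. Both courses peaked on the same 2 days, and both ratios lay at the threshold within rounding.

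Within the pair of days, day 2 was usually the higher. Day 2 exceeded day 4 in 2619 of the 3451 regions (75.9%), against 51.7% of all autosomal regions, and the median log2 difference was 0.19, against 0.02. Days 2 and 4 were within 1.25-fold of each other in 2200 regions (63.7%). Day 2 was at least 1.5 times day 4 in 300 regions and day 4 at least 1.5 times day 2 in 23. The rule itself caps this ratio at 2-fold, and these counts were not made over all autosomal regions. The interquartile range of the log2 difference was 0.01 to 0.39 in the set and -0.30 to 0.34 over all autosomal regions. The limit on the ratio of the 2 days kept out 24 further regions, and day 2 was the higher in all 24.

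The 3 days outside the pair were not equally low. Day 20 was the highest of the 3 in 1983 regions (57.5%), day 10 in 848 (24.6%) and day 0 in 620 (18.0%), whereas among all autosomal regions the same shares were 32.4%, 32.4% and 35.2%. Openness at day 20 was at least 1.5 times that at day 0 in 1048 regions (30.4%), and the reverse held in 85 (2.46%). Over all autosomal regions these 2 shares were 30.9% and 28.3%, so the first was near the background and only the second was lower. Day 20 was at least 1.5 times day 10 in 516 regions (15.0%) and day 10 at least 1.5 times day 20 in 80 (2.32%). Both shares were below those of all autosomal regions, 21.4% and 21.2%. The lowest value, which the rule places on 1 of these 3 days, fell on day 0 in 1997 regions (57.9%). The same share was not counted over all autosomal regions.

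This order was more marked in the more open regions. Among the 857 regions under 2 on the lower of days 2 and 4, day 20 was the highest other day in 45.9%, with medians of 0.553, 0.605 and 0.629 at days 0, 10 and 20. The share was 55.5% in the 1446 regions from 2 to 3, 66.8% in the 976 from 3 to 5 and 78.5% in the 172 at 5 or more. In these last regions the medians were 0.987, 6.90, 5.75, 1.26 and 1.94 at days 0, 2, 4, 10 and 20. The share with a ratio of 3 or more was 2.68% in the least open group and 39.0% in the most open one. The value that formed these groups is also the upper part of the ratio, so a difference in this direction is partly built in. Through the rule that value also limits days 0, 10 and 20, so these days have less room to differ in the less open groups. The share with day 20 highest was not counted over all autosomal regions at like openness, so the trend in it is a description only.

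Ranked by the lower of days 2 and 4, the first of the selected regions was chr3:90179841-90180679, 839 bp wide in the mm9 build that the submitters name. Its values at days 0, 2, 4, 10 and 20 were 1.15, 13.3, 11.6, 2.01 and 3.14. Next came chr6:31565374-31565857, at 0.726, 12.6, 10.9, 1.78 and 2.97, and chr1:180339063-180339519, at 1.87, 14.2, 8.82, 1.41 and 2.31. The first 2 were nearly as open at day 4 as at day 2, and in the last day 2 was 1.60 times day 4. On chromosome 15, chr15:7201890-7202725 stood at 1.02, 10.4, 8.79, 1.62 and 3.71. On chromosome 19, chr19:11889321-11889778 was the one among these that was higher at day 4 than at day 2, with 1.09, 8.10, 8.62, 1.62 and 2.52. Chromosome 6 held 4 of the 15 most open regions, the others being chr6:133988912-133989421 (12.8 at day 2 and 8.46 at day 4), chr6:47279253-47279531 (8.89 and 8.37) and chr6:146588140-146588357 (9.49 and 7.30). Over the whole set chromosome 6 did not stand out, with 1.94% of its regions selected, against 2.02% of all autosomal regions. In each of the 15 most open regions, day 20 was the highest of the 3 other days.

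The regions that stood out furthest from their other days were different ones. At chr5:65886789-65887286 openness was 0.582, 9.18, 5.77, 0.760 and 0.578 at days 0, 2, 4, 10 and 20, a ratio of 6.82. On the same chromosome, chr5:65731273-65731674 was also among the 15 most open regions, with 1.25, 9.23, 7.68, 1.79 and 2.83. The regions chr5:118401905-118402357 and chr11:18922669-18923622 had ratios of 5.93 and 5.77. The first stood at 5.36 and 4.13 at days 2 and 4 and the second at 6.36 and 4.50, and both were between 0.483 and 0.698 on the 3 other days. At chr7:46925002-46925961 the ratio was 5.68, with 0.470 at day 0, 6.90 and 5.17 at days 2 and 4, and 0.709 and 0.827 later. At chr10:52110529-52111621 it was 5.45, with 0.418 at day 0, 3.84 and 3.88 at days 2 and 4, and 0.580 and 0.623 later. Gene names are not given for these places, because no gene annotation of the same build was used here.

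Width was not used in the selection, and the selected regions were wider than most. Their median width was 723 bp, with an interquartile range of 478 to 999 bp, and that of all autosomal regions was 421 bp (247 to 737 bp). Regions open at day 2 only had a median of 582 bp (901 regions), regions open at day 4 only 408 bp (1012) and regions open at days 10 and 20 339 bp (2890). Openness and width are related in the table, so regions were also compared at like openness on their highest day. From 2 to 3 the median width was 724 bp for 1288 regions open at days 2 and 4 and 367 bp for 61578 other regions. From 4 to 6 it was 741 bp for 694 and 590 bp for 13244. At 6 or more the order was the reverse, 678 bp for 185 and 902 bp for 6041. The widths of the regions open at days 2 and 4 differed little with openness, while those of other regions were larger from an openness of 4 upward. How the authors set the borders of a region is not given in the sources used here, and regions are not replicates, so these differences carry no test.

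**Figure D2:**
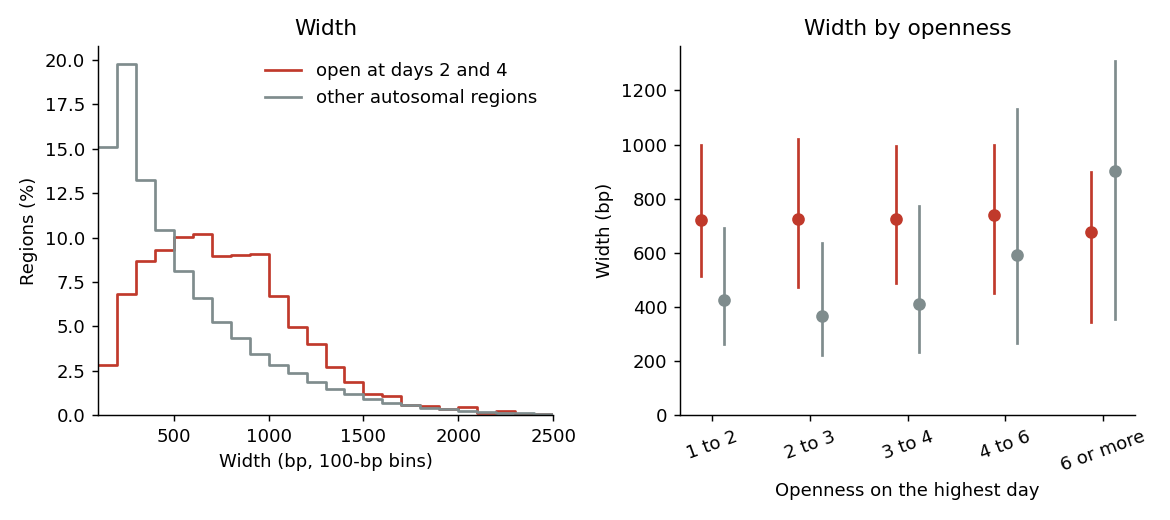
Left, share of regions by width in bins of 100 bp; right, median width (points) and interquartile range (lines) by openness on the highest day, for regions open at days 2 and 4 (red) and other autosomal regions (grey). The red medians stay between 678 and 741 bp, above the grey ones up to an openness of 6 and below them beyond it.

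The regions lay on all 19 autosomes. The share of a chromosome's regions that belonged to the set ran from 1.63% on chromosome 4 (Wilson 95% interval 1.41% to 1.89%, which covers counting error only) to 2.71% on chromosome 19 (2.25% to 3.26%). Chromosome 19 as a whole was also more open than at day 0, with medians over all its regions of 1.18, 1.31, 1.43, 1.35 and 1.37 by day, while chromosome 4 stood at 1.25, 1.23, 1.27, 1.26 and 1.28. When each chromosome was brought to 1 median per day, an alternative chosen after seeing the data, the set held 3449 regions.

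Regions open at days 2 and 4 had another of their kind nearby more often than other regions had one. Another of them was found within 10 kb of 413 regions (12.0%) and within 50 kb of 983 (28.5%). Of the 167433 other autosomal regions, 4.03% and 16.8% had one within these distances. Such spacing was not peculiar to the set: the share with another of its own kind within 50 kb was 1.69 times that of outside regions here, 2.43 times for regions open at day 2 only, 2.63 times for day 4 only and 1.76 times for days 10 and 20. These ratios may depend on the number of regions in each group, which differed. The set also lay in denser stretches, with a median of 3.16 kb to the nearest region of any kind, against 3.62 kb for other regions. The part of this in the spacing was not tested. Regions open on all days were taken as 3 or more on each day and within 2-fold. Such a region lay within 10 kb of 4.49% of the set and of 2.41% of the other autosomal regions. The same share was 1.11% for regions open at day 2 only, 1.68% for day 4 only and 1.25% for days 10 and 20.

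Joined into runs with gaps of at most 50 kb, 2468 regions stood alone, 357 runs held 2, 66 held 3, 14 held 4 and 3 held 5. The densest, at chr12:31902799-31956982, spanned 54.2 kb and held 5 members among 11 regions. Its members ranged from 1.89 to 3.50 at day 2 and from 1.62 to 3.26 at day 4. They ranged from 0.622 to 1.04, 0.581 to 1.10 and 0.658 to 1.55 at days 0, 10 and 20, where the rule itself sets each member lower. Of the 6 other regions in this span, 3 were also higher on both days 2 and 4 than on each other day without reaching the threshold. The run at chr2:49348554-49467138 spanned 119 kb and held 5 members among 18 regions. Within it chr2:49417556-49418650 stood at 0.433, 3.72, 2.73, 0.856 and 0.732, and 2 of the 13 other regions had both days above the rest. The run at chr7:109019082-109122278 spanned 103 kb and held 5 among 12. Its most open member, chr7:109086396-109086674, stood at 1.02, 4.78, 3.86, 1.23 and 1.58, and 2 of its 7 other regions had both days above the rest. Over all 167433 regions outside the set that share was 15.9%, and these runs hold too few regions to set against it.

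Over the whole table, regions near the set without belonging to it were counted in the same way. Of 562 such regions less than 1 kb from a member, 181 (32.2%) were higher on both days 2 and 4 than on each other day, after 0.1 was added to each value. The share was 27.9% from 2 to 5 kb, 20.5% from 10 to 50 kb, 15.4% from 100 to 500 kb and 11.9% beyond 500 kb. The nearest regions had median openness of 1.04, 1.62, 1.60, 1.20 and 1.47 at days 0, 2, 4, 10 and 20, and those beyond 500 kb 1.32, 1.07, 1.03, 1.15 and 1.09. Whether neighbouring regions share a local background in the authors' openness value is not given in the sources used here, and its part in this gradient was not tested.

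**Figure D3:**
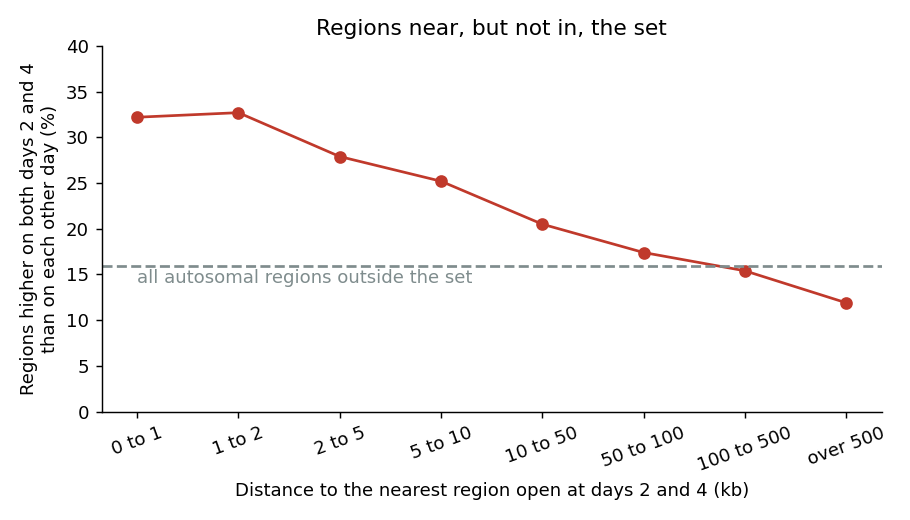
Share of autosomal regions outside the set that were higher on both days 2 and 4 than on each of days 0, 10 and 20, by distance to the nearest region open at days 2 and 4; the dashed line is the share over all such regions (15.9%). The share is 32.2% below 1 kb, 32.7% from 1 to 2 kb and 11.9% beyond 500 kb.

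Among the 10 ways of choosing 2 of the 5 days, days 2 and 4 gave the most regions. Under the same rule the share of autosomal regions was 2.02% for days 2 and 4, 1.69% for days 10 and 20, 0.597% for days 4 and 10 and 0.204% for days 0 and 2. It was 0.161% for days 0 and 20, 0.0691% for days 4 and 20 and 0.0380% for days 0 and 10. For days 2 and 10 it was 0.00878%, for days 0 and 4 it was 0.00468% and for days 2 and 20 it was 0.00176%. At a 3-fold threshold days 10 and 20 came first with 565 regions and days 2 and 4 second with 493. Days 2 and 4 were also the most alike of all columns: across the autosomal regions, which are not independent replicates, their log2 values correlated at 0.783, and the other pairs at 0.129 to 0.545. Day 0 correlated at 0.292 with day 2 and day 10 at 0.543 with day 20. Which libraries were handled together is not stated, and the part this plays in the likeness of days 2 and 4 was not tested.

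RNA gave another order. Applied to RNA, the pattern asked for a higher mean at both days than at each other day by 1 or more on the log2(FPKM + 1) scale, and each of the 6 limma contrasts had to reach an adjusted p under 0.05. Unlike the rule for regions, it set no limit on the ratio of the 2 days, and 43 of the 61 genes it gave had days 2 and 4 within 2-fold. Days 2 and 4 gave 61 of 14982 tested genes (0.407%), which ranked 5 among the 10 pairs. Days 10 and 20 gave 6.45%, days 0 and 2 2.92%, days 4 and 10 1.76% and days 0 and 20 0.667%. The other pairs were at 0.154% for days 2 and 20, 0.0801% for days 4 and 20, 0.0734% for days 0 and 4, 0.0267% for days 0 and 10 and 0.0133% for days 2 and 10. The day 0 libraries fell into 2 sets, replicates 1 to 3 and 4 to 7, which no label accounts for. Without replicates 4 to 7 the pattern held for 57 genes (56 shared with the 61) and without replicates 1 to 3 for 60 (59 shared). Shares of regions and of genes have different denominators and rules, so only their order within each readout is set side by side. The other days also differed: of the 61 genes day 10 was the highest other day in 28, day 0 in 24 and day 20 in 9. Over all tested genes the shares of days 10, 0 and 20 were 31.2%, 34.3% and 34.5%.

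**Figure D4:**
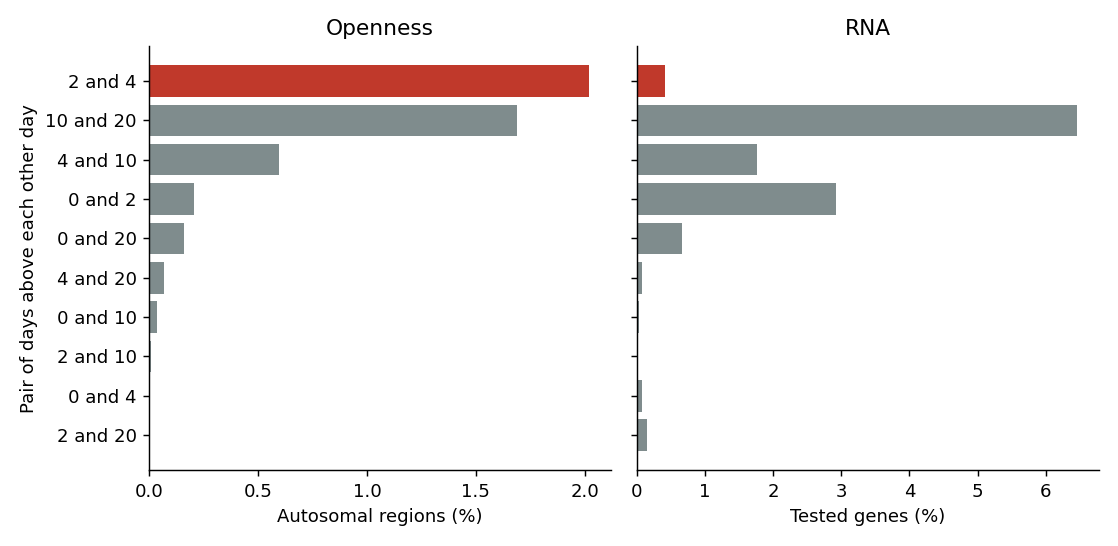
Left, share of autosomal regions open on each pair of days and at least 2-fold less open on each other day; right, share of tested genes higher in RNA on both days than on each other day, with no limit on the ratio of the 2 days. Days 2 and 4 (red) come first for openness with 2.02% and rank 5 for RNA with 0.407%.

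The most abundant of the 61 genes included both cellular retinoic acid-binding proteins. Crabp2 was 12.5, 13.9 and 16.0 FPKM at day 0 (lowest, median and highest of 7 libraries). It was 1110, 1077 and 1065 at day 2 and 412, 380 and 397 at day 4. By day 10 it was 6.43, 5.75, 5.72, 5.50 and 5.72, and at day 20 it was 2.73, 2.62, 1.76 and 1.64. No library of days 2 and 4 overlapped one of another day, and the smallest of the 6 differences was 4.72 (limma, largest adjusted p = 9.84e-22). Crabp1 had a median of 19.9 FPKM at day 0, means of 389 ± 17.5 (SD, n = 3) and 325 ± 12.3 (n = 3) at days 2 and 4, and 96.0 ± 3.93 (n = 5) and 11.8 ± 1.60 (n = 4) at days 10 and 20.

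Transcription factors of neural progenitors were also among the 61. Sox3, a SoxB1 factor of the neural plate, was 2.87, 3.49 and 4.21 FPKM at day 0 (lowest, median and highest). It was 84.1, 82.9 and 79.5 at day 2 and 92.0, 87.6 and 91.0 at day 4, then 24.7 ± 2.76 at day 10 and 11.5 ± 1.56 at day 20. Irx3, a homeodomain factor of spinal progenitors, was 0.510, 0.620 and 0.970 at day 0, 59.6, 62.5 and 56.6 at day 2 and 42.7, 39.7 and 40.5 at day 4. Its smallest difference was 2.18 (limma, largest adjusted p = 5.01e-15), and it stood at 8.27 ± 0.918 and 1.70 ± 0.213 FPKM at days 10 and 20. Neurog2, a proneural bHLH factor, was between 0 and 0.110 FPKM at day 0, 17.9 ± 1.13 at day 2 and 66.8 ± 3.05 at day 4, and it was 3.46 ± 0.349 at day 10. The Hox cofactor Pbx2 stood at 87.1 ± 4.06 and 79.6 ± 1.01 at days 2 and 4 and between 22.5 ± 2.48 and 35.8 ± 3.80 on the other days. Days 2 and 4 did not overlap other days in any of the 61 genes. These genes were called on differences among the same libraries. The lack of overlap, given for Crabp2 above as well, is therefore largely built in and is no separate evidence. Of all 14982 tested genes, 450 had no such overlap, the 61 among them.

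**Figure D5:**
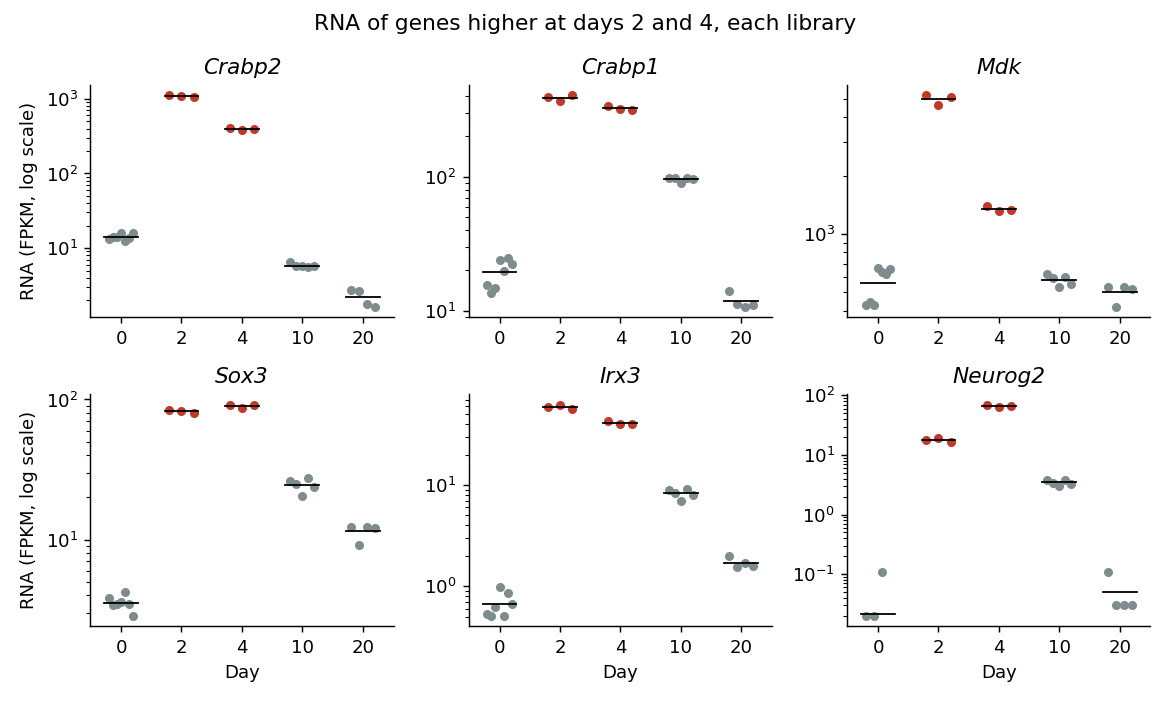
FPKM on a log scale in each of the 22 RNA libraries for 6 genes that were higher at days 2 and 4 (red) than on the other days (grey); black lines are day means, and libraries at 0 FPKM are not drawn. Crabp2 has means of 1084 and 396 at days 2 and 4. No red point lies at the level of a grey one, which is largely built in, because the genes were called on these same libraries.

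The other genes of this group with high levels had various roles. The growth factor gene Mdk was 5193, 4644 and 5074 FPKM at day 2, 1349 ± 44.9 at day 4 and 499 ± 53.6 to 578 ± 35.1 on the other days. Dlk1 stood at 157 ± 0.208 and 111 ± 2.41, Cldn6, a claudin of tight junctions, at 212 ± 10.9 and 84.4 ± 2.63, and the Wnt antagonist Sfrp2 at 79.8 ± 8.04 and 246 ± 15.3. The linker histone gene H1fx was at 153 ± 7.60 and 147 ± 4.15. Several calls were close to the threshold of 1. After quantile normalization the smallest difference was 0.83 for Mdk and 0.62 for Pcbp4, and Mest was at 0.84 without day-0 replicates 4 to 7. The smallest difference of Slc16a3, 1.01 over all libraries, was 0.95 without day-20 replicate 2 and 0.96 without day-2 replicate 1 or 3. That of Pcbp4, 1.03, was 0.97 without day-2 replicate 2 and 0.99 without day-10 replicate 3. Gm2000 and Gm10282 are gene models that may share reads with copies, and Gm2000 was at 0.64 (adjusted p = 0.0783) without day-0 replicates 4 to 7.

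In the gene lists, 10 of the 201 tested genes had the RNA pattern of days 2 and 4, beside 61 of all 14982 (0.407%). The lists were chosen with earlier results of these data known, so no enrichment is read from these counts. Of the 10 genes, 6 were over 2-fold apart between days 2 and 4 (Crabp2, Pax6, Dbx1, Neurog1, Neurog2 and Neurod4). Of all tested genes 42.0% were higher and 32.1% lower at day 2 than at day 0, and 47.0% and 35.5% at day 4 than at day 0 (limma, adjusted p under 0.05). Against day 4, 41.4% were higher and 32.3% lower at day 10, and 43.3% and 38.5% at day 20. Of 22 retinoic acid signalling genes 19 rose from day 0 to day 4, with a median difference of 2.22 against 0.12 for all genes, and from day 4 to day 10, 7 rose and 10 fell. Crabp1 and Crabp2 had the pattern. All 12 anterior Hox genes rose from day 0 to day 2 and all 12 fell from day 4 to day 10 (median -1.17), but 0 had the pattern. Hoxd4, whose smallest difference was 0.88, had 30.5 ± 1.92 FPKM at day 2, 69.3 ± 1.64 at day 4 and 16.1 ± 1.91 at day 10. Of 14 middle Hox genes 14 rose by day 2, 6 rose and 6 fell from day 4 to day 10 (median -0.06), 14 fell from day 4 to day 20, and 0 had the pattern.

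Neural factors made up most of the other listed genes with the pattern, but many of the lists were of neural factors. Of 24 tested neural progenitor homeodomain and zinc finger factors 19 rose by day 2 and 17 fell from day 4 to day 20, and 3 had the pattern (Pax6, Irx3 and Dbx1). Of 15 proneural factors 13 rose by day 4 and 11 fell from day 4 to day 10, with 3 in the pattern (Neurog1, Neurog2 and Neurod4). The Sox list held 1 of 10 (Sox3) and the list of Meis, Pbx and Cdx factors 1 of 9 (Pbx2). The lists of COUP-TF and orphan receptors, POU and LIM factors, pluripotency, endoderm, mesoderm and blood, late glia, AP-1 and epithelial factors held 0. Of the 18 members that the POU and LIM list names, 17 were tested, 13 rose by day 4 and 15 fell from day 4 to day 10. Of 10 tested AP-1 genes 7 fell by day 2 and 8 rose from day 4 to day 10, and of 15 epithelial factors 8 fell by day 2 and 14 rose from day 4 to day 20. Since the regions carry no gene names here, these genes were not tied to single regions.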

How the data were processed

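R1 cells were profiled by ATAC-seq (32 libraries) and RNA-seq (22 libraries), each grouped by the day in its title. The openness signal was deposited by the authors as 1 pooled value per region and day. Its 5 columns share quartiles, so they look as if brought to 1 distribution before deposit, which would hide any genome-wide shift. How regions were called is unknown. The build is mm9 per the submitters' processing notes, and the last region of chromosome 1 ends at 197093535. Starts were taken as BED positions and are printed counted from 1. The FPKM values were deposited by the authors, who used RSEM (version not given) per the submitters' processing notes, and the unit was inferred from library sums of 472122 to 678222. The depth of the libraries is unknown.

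Regions were counted and described with Python 3.11.15 and pandas 2.3.3. For RNA, 14982 of 21960 genes reached 1 FPKM in 3 or more libraries. Their log2(FPKM + 1) values were fitted jointly for the 22 libraries in limma 3.58.1 (R 4.3.3), with trended empirical Bayes variances and 17 residual degrees of freedom. P-values were 2-sided and adjusted per contrast by Benjamini-Hochberg. The added 1 FPKM makes log2 differences of weakly expressed genes too small. The limma step was tested on simulated data. Named genes were the 15 genes of the pattern with the highest smaller mean of days 2 and 4, and the 3 members of each of 15 gene lists that changed most from day 0 to day 4. The text gives a selection of these, and pattern genes in a list are also named. Named regions were the 15 most open, the 5 with the largest ratio and the densest runs. The regions and lists were chosen with earlier results of these data known. The reference tables were of another build, so motifs, sequences and nearest genes of the regions were not analysed here.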

Additional observations from a re-analysis of the deposited data

Results flagged for a closer look

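Chromosome X was left out of the selection, and 318 of its 3107 regions (10.2%, Wilson 95% interval 9.22% to 11.4%) met the same rule, against 2.02% on the autosomes. This signal lies in data outside the set. These regions had median openness of 0.420, 2.46, 1.95, 0.463 and 0.509 at days 0, 2, 4, 10 and 20. The median over all X regions was 1.14, 1.63, 1.23, 0.710 and 0.649 by day. This was 0.932 times the autosomal median at day 0, 1.34 times at day 2, level with it at day 4, and 0.577 and 0.525 times at days 10 and 20. After each day of X was brought to the autosomal median, 61 regions (1.96%) met the rule. In RNA, X-linked genes changed from day 0 by a median of 0.14, 0.20, 0.29 and 0.26 (log2, 555 genes) at days 2, 4, 10 and 20, and autosomal genes by 0.07, 0.12, 0.28 and 0.40 (13949 genes). Chromosomes of genes came from the RefSeq table by symbol, which matched 14511 of 14982 genes. The part of library handling or cell composition in these X values was not tested.

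Among 177 groups of 4 to 7 libraries of 1 gene and day, 15 had a library far from the others by Dixon's criterion, and chance alone marks about 1 in 20. At day 20, replicate 2 was low for Mdk (419 FPKM, others 518 to 530), Sox3 (9.13, others 12.0 to 12.4) and Hes5 (2.73, others 3.78 to 3.96), and replicate 4 for Grhl3 (7.24, others 9.93 to 10.3). Day-20 replicate 1 was high for Crabp1 (14.2, others 10.7 to 11.2), Pcbp4 (80.2, others 55.6 to 56.2) and Neurog2 (0.110, others at 0.0300). At day 10, replicate 1 was high for Crabp2 (6.43) and Sox11 (29.1) and low for Isl1 (0.160). Replicate 3 was high for Gm2000 (24.8) and replicate 4 low for T (0.0100). At day 0, replicate 4 was high for Sfrp2 (22.6, others 13.0 to 15.7), and replicate 5 for Neurog2 (0.110) and Tal1 (0.850, others 0.190 to 0.310).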

How the results depend on the processing

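The number of regions (3451) was 1707 with 0.5 added to openness, 493 at a 3-fold and 9248 at a 1.5-fold threshold. In those settings the median width was 744, 742 and 685 bp, and 18.7%, 4.87% and 51.8% of regions had another within 50 kb. That share, which depends on how many regions are chosen, was 31.3% with nothing added, 25.9% with a minimum of 2 and 30.2% with the sex chromosomes. Days 2 and 4 ranked 2 at a 3-fold threshold and 1 in the other settings tried. The 61 genes of the RNA pattern became 95 with 0.1 FPKM added, 61 of them shared, and 68 after quantile normalization, 49 of them shared. Leaving out 1 library gave 60 to 63 genes, always at rank 5, and 172 to 179 list genes called between days 4 and 0, 164 to 172 between days 2 and 0, 154 to 164 between days 10 and 4 and 169 to 178 between days 20 and 4. Replicate numbers did not pair the libraries: correlations of same-numbered deviations ran from -0.146 to 0.219 over 34 pairs, and 2 of 22 libraries matched their own number best. With the replicate block 58 genes were called, 57 of them shared, and Mest missed the threshold (0.97). No direction of a named gene changed. The planned analyses of nearest genes and motifs were not run. With 1 pooled openness value per day, no error of openness could be given, and no region's difference could be tested.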
